A study of Mus musculus with 12 samples.

Results

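β-catenin and histone H3K27ac ChIP-seq was examined at 10 genes of mouse forelimb buds: the NOTCH ligands Jag1, Jag2 and Dll1, the receptors Notch1 and Notch2, the NOTCH target genes Hes1, Hey1 and Hey2, and the Snail family genes Snai1 and Snai2. A locus was the gene body with 100 kb on either side on mm10, and each listed peak summit inside it was a member. These 10 loci, of 21938 protein-coding loci, held 34 of the 16238 β-catenin summits and 101 of the 31466 H3K27ac summits in the consensus lists of the wild-type controls. All embryos were wild-type Swiss Albino. Their mothers were injected at E10.5 with C59, an inhibitor of porcupine that blocks WNT secretion, or with the DMSO solvent (wild-type controls), and forelimb buds were pooled for each library 6 h later. Each antibody and treatment had 2 biological replicates, and the authors also deposited 1 consensus list for each pair. The buds are mixed tissue, so fewer bound cells and less binding per cell cannot be told apart.

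NOTCH signaling passes between touching cells. A Delta or Jagged ligand binds a NOTCH receptor, whose intracellular part is then cut free, enters the nucleus and joins the DNA-binding protein RBPJ to activate genes such as Hes and Hey, which encode transcriptional repressors. Jag1 is known as a ligand of the distal limb bud mesenchyme, Jag2 as a ligand of the apical ectodermal ridge, and Snai1 and Snai2 encode zinc-finger repressors that act in the formation and migration of mesenchymal cells. In canonical WNT signaling, stabilized β-catenin is held at DNA by TCF/LEF factors, and H3K27ac marks active promoters and enhancers.

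In the consensus of wild-type control forelimb buds, β-catenin was called at 9 of the 10 loci, against 58.8% of all protein-coding loci. Calls were most frequent around Hes1, Notch2 and Snai1, and mostly far from the promoters. At Notch1 and Jag2 the only consensus summit was nearest to the TSS (transcription start site) of another gene. After C59, 0 of the 34 control summits remained in the consensus list, and 98.9% of all control summits were lost. 1 call, upstream of Hes1, was left in 1 of the 2 replicates. H3K27ac remained listed at all 10 loci, against 81.1% of all loci in the C59 consensus. This counts any summit within 100 kb. No H3K27ac summit of the C59 consensus lay within 2 kb of a TSS of Jag2, Hey2 or Snai1. The height of H3K27ac promoter peaks overlapped between treatments at 6 of the 7 genes that could be compared. Over all promoters, both C59 values were lower at 19.5% and higher at 21.1%.

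The windows below are shown because they hold the strongest β-catenin summits (Snai1 and Jag1), 5 of the 6 summits with a TCF/LEF motif core, or the summit that was still called after C59. Each is 200 bp of the plus strand of mm10 centred on a summit of the control consensus list. Capitals mark the TCF/LEF core, which is ATCAAAG or TTCAAAG on either strand, and in the last 2 windows, which lack it, the RBPJ core TGGGAA on either strand.
Snai1 downstream, chr2:167583309-167583508: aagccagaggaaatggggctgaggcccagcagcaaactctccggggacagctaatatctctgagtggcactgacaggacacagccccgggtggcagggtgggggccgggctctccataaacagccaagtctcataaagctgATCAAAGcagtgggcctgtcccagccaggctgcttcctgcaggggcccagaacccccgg
Dll1 downstream, chr17:15311979-15312178: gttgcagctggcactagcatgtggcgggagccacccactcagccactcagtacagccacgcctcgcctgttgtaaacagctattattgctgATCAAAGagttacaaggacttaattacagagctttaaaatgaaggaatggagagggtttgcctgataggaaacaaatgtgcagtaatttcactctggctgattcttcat
Notch2 upstream, chr3:97964948-97965147: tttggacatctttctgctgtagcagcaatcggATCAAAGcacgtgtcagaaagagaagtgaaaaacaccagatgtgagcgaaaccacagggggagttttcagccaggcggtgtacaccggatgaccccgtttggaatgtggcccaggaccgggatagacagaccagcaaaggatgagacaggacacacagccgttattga
Hes1 downstream, nearer, chr16:30103511-30103710: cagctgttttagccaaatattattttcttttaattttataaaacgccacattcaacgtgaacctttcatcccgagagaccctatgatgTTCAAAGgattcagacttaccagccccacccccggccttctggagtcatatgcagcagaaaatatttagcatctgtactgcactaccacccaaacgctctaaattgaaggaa
Hes1 downstream, farther, chr16:30145417-30145616: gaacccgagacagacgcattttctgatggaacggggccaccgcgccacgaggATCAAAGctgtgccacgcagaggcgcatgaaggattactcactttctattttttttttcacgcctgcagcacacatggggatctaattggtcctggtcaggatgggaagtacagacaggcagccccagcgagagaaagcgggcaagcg
Jag1 intron, chr2:137087889-137088088: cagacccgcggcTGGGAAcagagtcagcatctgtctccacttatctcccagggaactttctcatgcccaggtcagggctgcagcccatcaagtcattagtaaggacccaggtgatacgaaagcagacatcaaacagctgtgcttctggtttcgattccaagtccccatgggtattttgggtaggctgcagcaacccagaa
Hes1 upstream, chr16:30008939-30009138: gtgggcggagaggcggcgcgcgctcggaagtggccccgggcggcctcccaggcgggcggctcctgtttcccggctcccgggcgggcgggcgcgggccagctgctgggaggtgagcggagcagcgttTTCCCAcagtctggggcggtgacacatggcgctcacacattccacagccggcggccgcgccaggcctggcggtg

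The TCF/LEF core occurred in 6 of the 34 windows (17.6%), against 28.6% of the windows of all 16193 control summits on chromosomes 1 to 19, X and Y. The 6 windows lay at Dll1, Notch2 and Snai1 (1 each) and at Hes1 (3). The core lay 6 bp from the summit downstream of Dll1 and 9 bp from the nearer downstream Hes1 summit, and between 32 and 65 bp from the other 4. The RBPJ core was found in 8 of 34 windows (23.5%), against 17.1% of all windows. The E-box CAGGTG, a sequence that Snail proteins can bind, was found in 4 windows (11.8%), against 14.7%. These matches describe letters only, and the cores can overlap at their ends. Of the 300 bp promoters (250 bp before and 50 bp after the start) that RefSeq gives on GRCm38.p6 for 7 of the 10 genes, 0 of 8 held the TCF/LEF core, against 8.65% of 32851 promoters. The RBPJ core was in 1 of these 8, the Hey2 promoter, which held it 2 times, against 25.6% of promoters. No promoter is given here for Hes1, Hey1 and Snai2.

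Among the ligands, Jag1 had 4 and 2 β-catenin summits in the 2 control replicates and 2 in their consensus. The stronger lay in an intron 28.7 kb inside the gene (chr2:137087989), with a fold enrichment of 11.6 and 12.3 in the replicates and 13.4 in the consensus. Fold enrichment is the number of fragments over the summit divided by the number expected from the same library, with 1 added to each, and for this summit it exceeded that of 91.6% of all control summits. It lay 2.04 kb from an internal TSS (transcription start site) of Jag1 and outside the H3K27ac peaks of both consensus lists. The weaker lay 49.3 kb upstream with a fold of 6.07. The Jag1 promoter itself had a β-catenin row in replicate 1 only, with 11 fragments and a fold of 3.52.

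Dll1 had 3 and 4 β-catenin summits in the control replicates, and its 3 consensus summits were among the stronger ones. The highest lay 82.5 kb downstream of the gene start, with folds of 12.7 and 10.2 in the replicates. The summit with the TCF/LEF core lay 64.8 kb downstream, with folds of 9.68 and 6.76. Neither was in an H3K27ac peak of the consensus lists, and the first lay in an H3K27ac peak of C59 replicate 1 alone, with a fold of 3.26. The third lay 63.9 kb upstream, inside an H3K27ac peak, with folds of 8.57 and 8.75, and its nearest coding TSS was that of Fam120b. Jag2 had 5 and 3 summits in the replicates, of which 1 entered the consensus, 20.6 kb upstream of Jag2 and 8.20 kb from the TSS of Nudt14, with folds of 4.88 and 6.39. The locus of Jag2 holds 7 other protein-coding genes.

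Of the receptors, Notch2 had 10 and 8 β-catenin summits in the control replicates and 8 in the consensus, more than 97.8% of protein-coding loci. Its locus, with 337 kb, was the longest of the 10, and the ranks were not scaled by length. The 8 consensus summits lay on both sides of the promoter. 3 were from 48.5 to 78.5 kb upstream, 4 in introns, and 1 was at the promoter, 0.18 kb from the TSS, with folds of 5.86 and 5.17 in the replicates. The strongest, 78.5 kb upstream, had folds of 7.66 and 9.12 and was outside the H3K27ac peaks of the consensus lists. The one with the TCF/LEF core, 48.5 kb upstream, had folds of 9.20 and 7.69 and was inside one. Notch1 differed in number: it had 2 summits in each control replicate and 1 in the consensus. That summit lay at the promoter of Inpp5e, beyond the far end of Notch1, with 10 and 9 fragments and folds of 4.28 and 3.56. The Notch1 locus holds 9 other protein-coding genes, and no β-catenin summit of the consensus lay at a Notch1 TSS.

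Hes1, whose transcription is widely used as a NOTCH readout, had 10 and 13 β-catenin summits in the control replicates and 9 in the consensus, more than 98.3% of protein-coding loci. No other protein-coding gene lies in its locus. The consensus summits, some of which shared a peak, formed 3 groups. 2 lay upstream, at 55.3 and 44.1 kb, with consensus folds of 7.61 and 6.95. 4 lay between 3.9 and 6.0 kb downstream of the gene start, just beyond the gene. Over these 4 summits 83, 74, 56 and 55 fragments were counted, the first as many as at the strongest Snai1 summit, yet their folds were from 3.90 to 4.87, because between 13.3 and 16.2 fragments were expected there from the local coverage. The remaining 3, at 39.2, 80.9 and 81.1 kb, were the summits with a TCF/LEF core. The farthest, in the window shown above, was the strongest at Hes1, with folds of 6.29 and 9.67 in the replicates and 8.42 in the consensus. The Hes1 promoter had a β-catenin row in replicate 2 only, with 40 fragments against 7.57 expected and a fold of 4.79.

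The other NOTCH target genes had fewer calls. Hey1 had 5 and 2 summits in the control replicates and 3 in the consensus, all between 41.9 and 50.5 kb upstream. The strongest of these, 41.9 kb upstream, had folds of 7.73 and 9.09. The Hey1 promoter had a row in replicate 1 only, with 13 fragments and a fold of 4.58. Hey2 had 0 β-catenin summits in every list, although 58.8% of all protein-coding loci had at least 1 in the control consensus.

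Snai1 had 6 and 7 summits in the control replicates and 6 in the consensus, more than 95.5% of protein-coding loci. It held the strongest β-catenin summit of the 10 loci (chr2:167583409), 45.2 kb downstream of the Snai1 start, where 50 and 44 fragments gave folds of 14.0 and 11.7 in the replicates. This summit exceeded 93.0% of all control summits, carried the TCF/LEF core, lay 27.24 kb from the TSS of Ube2v1 and was outside the control H3K27ac peaks. A pair of summits at 57.9 and 59.4 kb downstream lay inside H3K27ac peaks and had consensus folds of 7.52 and 7.59. Another summit lay at the promoter of Rnf114. Snai2 had a single summit in each control list, at its own promoter 0.06 kb from the TSS, inside an H3K27ac peak, with 13 and 12 fragments and folds of 5.05 and 4.62.

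**Figure D1:**
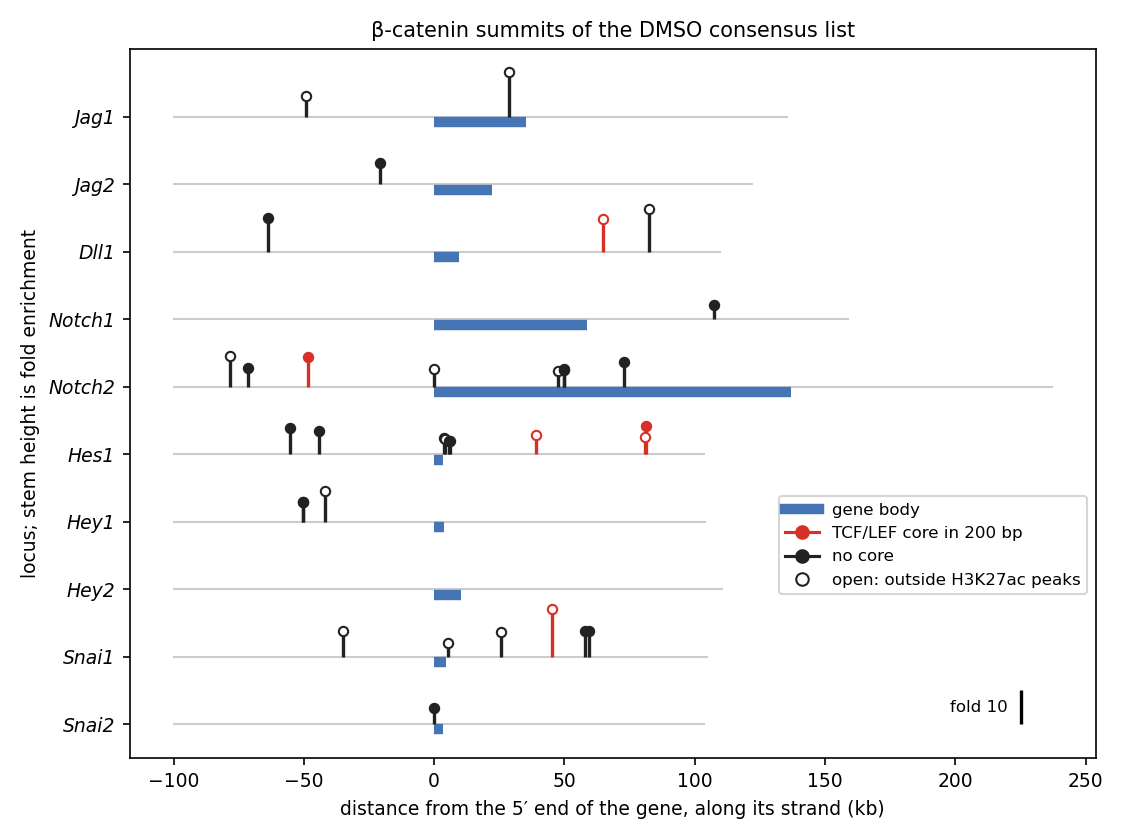
Positions of the 34 control β-catenin summits around the 10 genes, in kb from the 5′ end of each gene along its strand. Stem height is the consensus fold enrichment (scale bar, fold 10), red stems carry a TCF/LEF core within the 200 bp window, open circles lie outside control H3K27ac peaks, and blue bars are gene bodies. 2 stems stand at the promoters of Notch2 and Snai2, and the highest stems are at Snai1, Jag1 and Dll1.

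Over all 10 loci, the 34 summits lay in 29 peak regions, with a median fold of 6.20 (3.90 to 14.1) against 6.76 for all control summits. The median number of fragments in the consensus was 38.0 (16 to 83). 2 lay at the promoter of the gene itself, 2 at promoters of other genes, 5 in introns and 25 between genes, and for 25 of the 34 the nearest coding TSS belonged to the listed gene. All 34 were listed in both control replicates. The ratio of the higher to the lower replicate fold had a median of 1.19 and reached 1.86 at the intronic Notch2 summit 47.5 kb into the gene, with replicate 1 higher at 15 summits and replicate 2 at 19.

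Of the 34 summits, 18 lay inside a control H3K27ac peak (52.9%, 95% Wilson interval 36.7 to 68.5, which covers counting error only), against 22.1% of all control summits. Both Jag1 summits and the strongest summits of Dll1, Notch2, Hey1 and Snai1 were among those outside. Inside were the 2 upstream Hes1 summits, the farthest downstream Hes1 summit and the Snai2 promoter. The 34 summits lie in 29 peak regions at 9 loci and are not independent, so the interval is no test against the share of all summits.

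The comparison of C59-treated with wild-type control forelimb buds asks which of these calls depend on WNT secretion. The β-catenin counts of both C59 replicates lay below those of both control replicates at 9 of the 10 loci, against 65.0% of all protein-coding loci. A locus with 0 summits in a control replicate could not be called in this way. Only 68.3% and 75.6% of all loci had a summit in control replicates 1 and 2, so this share mainly reflects which loci had control summits. In total 46 and 42 summits were listed in the control replicates, and 1 and 0 in the C59 replicates. At Hes1 the counts were 10 and 13 in controls and 1 and 0 after C59. At Notch2 they were 10 and 8 against 0 and 0, and at Snai1 6 and 7 against 0 and 0. Jag1, Jag2, Dll1, Notch1, Hey1 and Snai2 also had 0 summits in every C59 list, and Hey2 had 0 throughout. With 2 replicates in each group the two-sided exact permutation test gave p = 0.33 at each of the 9 loci, the smallest value this design allows, so a single locus cannot pass a threshold of 0.05.

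Of the 34 control summits, 34 lay outside every C59 consensus peak, against 98.9% of all control summits. The share lost at these genes was thus near that across the genome. Axin2, a transcriptional target of WNT signaling that serves as the reference, had 12 summits in the control consensus and 3 in the C59 consensus.

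The single C59 call lay 55.3 kb upstream of Hes1 (chr16:30009047) in replicate 1, where 12 fragments against 1.83 expected gave a fold of 4.60 and a −log10 q of 2.51. It fell inside the control peak printed above as the upstream Hes1 window, where 23 and 31 fragments in the control replicates gave folds of 7.07 and 8.32. It was not listed in C59 replicate 2 or in the C59 consensus.

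The C59 β-catenin libraries were not shallower. The fragment bases recovered from the lists were 3.42 and 3.40 Gb, against 2.93 and 3.39 Gb in the controls. The lists, however, end at different p-values: the lowest −log10 p was 5.69 and 5.72 in the C59 replicates and 3.89 and 3.79 in the controls, and at least 11 fragments were needed at any listed C59 summit. At or above 5.72, 40 of 46 (87.0%) and 38 of 42 (90.5%) control rows of the 10 loci remained, against 85.4% and 79.4% of all rows of these libraries, and 32 of the 34 consensus summits reached it in both control replicates. In the consensus lists the lowest −log10 p was 8.92 after C59, with at least 21 fragments, and 3.69 in controls, with at least 11. The only control consensus summits of Notch1 and Snai2 held 16 and 18 fragments, below that C59 minimum. A summit that is not listed after C59 may still be bound below these limits.

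**Figure D2:**
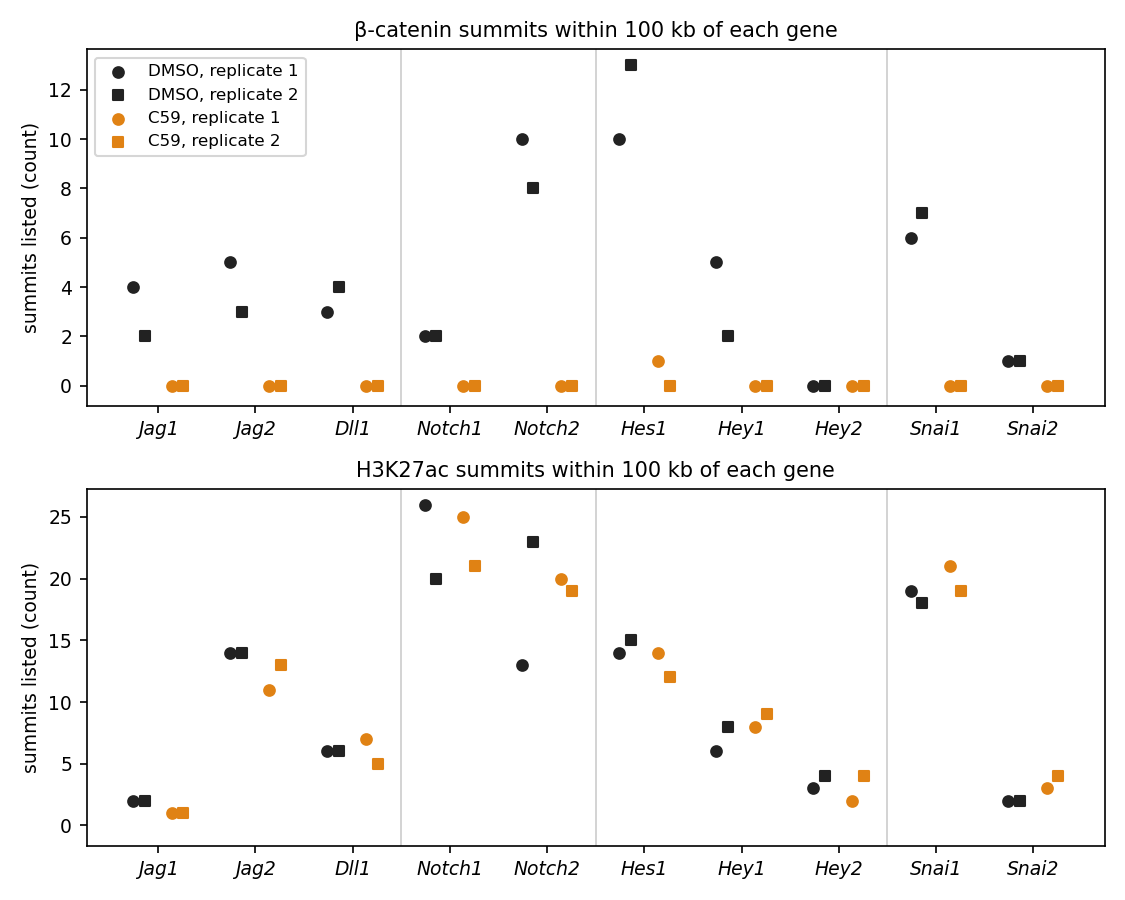
Number of listed β-catenin (top) and H3K27ac (bottom) summits within 100 kb of each gene in each replicate library, with no averaging. Black symbols are wild-type controls (DMSO) and orange symbols are C59. C59 symbols lie at 0 for β-catenin except the single Hes1 call, whereas H3K27ac is listed at every locus in both treatments. H3K27ac replicates are widest apart at Notch2, with 13 and 23 in controls and 20 and 19 after C59.

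H3K27ac did not follow β-catenin in number. The control replicates listed 105 and 112 H3K27ac summits at the 10 loci, and the C59 replicates 112 and 107. The consensus lists held 101 in controls and 90 after C59, beside 31466 and 30166 summits in all. The replicate counts overlapped between treatments at 7 loci. Both C59 counts were lower at 2 loci, against 12.1% of all protein-coding loci: Jag1, with 2 and 2 in controls and 1 and 1 after C59, and Jag2, with 14 and 14 against 11 and 13. Both were higher at 1 locus, against 4.84% of all loci: Snai2, with 2 and 2 against 3 and 4. All of these differences are of 1 to 3 calls. At Snai2 the summits of every library lay in 1 region that was listed in all 4 libraries. At Jag1, 1 region was listed in all 4 libraries, and 2 others were each listed in 1 control replicate, not the same one. At Hes1 the counts were 14 and 15 in controls and 14 and 12 after C59. Hey2, which had no β-catenin call, listed 3 and 4 H3K27ac summits in controls and 2 and 4 after C59. The only region of the Hey2 locus listed in all 4 libraries lay at the promoter of Ncoa7.

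The height of an H3K27ac promoter peak, taken as the highest fold enrichment within 2 kb of any TSS of the gene, could be compared in all 4 libraries for 7 of the 10 genes. The Jag1 promoter measured 12.1 and 11.6 in controls and 12.8 and 11.8 after C59. The Notch2 promoter was the highest of the 10, with 17.3 and 15.3 against 16.6 and 16.3. Both ranges overlapped.

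The Hes1 promoter measured 8.46 and 8.21 in controls and 8.29 and 6.61 after C59, a mean of 8.34 ± 0.174 against 7.45 ± 1.18 (SD, n = 2 each; two-sided exact permutation p = 0.67). The Hey1 promoter measured 7.93 and 9.03 against 9.23 and 7.59, and the Snai2 promoter 7.20 and 6.10 against 7.70 and 5.77. The Dll1 promoter measured 5.42 and 3.60 in controls and 3.36 and 4.78 after C59. Treatments overlapped at these 4 genes.

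Both C59 values lay below both control values at 1 of the 7, against 19.5% of 11287 promoters, and both lay above at 0 of the 7, against 21.1%. The exception was Notch1, with 4.42 and 3.47 in controls and 3.25 and 3.34 after C59 (a log2 difference of -0.26, exact permutation p = 0.33, the smallest possible). The difference was -0.07 without DMSO replicate 1, -0.42 without DMSO replicate 2 and -0.43 in a window of 5 kb. Its values came from different TSSs. The region over the 5′ end of the gene (chr2:26516496-26516979) was listed in both controls, with folds of 3.06 and 3.47, and in neither C59 library. A region at an internal TSS (chr2:26503414-26503733) was listed in both C59 libraries, with folds of 3.25 and 3.24, and in neither control. The value of 3.34 in C59 replicate 2 came from a nearby region in an intron (chr2:26502154-26502671). That region was also listed in C59 replicate 1, with a fold of 2.47, and in control replicate 1, with 2.74. All of these are low peaks, and the highest control value, 4.42, was another region listed in control replicate 1 alone.

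The other 3 promoters were not listed in every library. Jag2 measured 3.72 and 4.57 in controls and 3.02 in C59 replicate 2. Hey2 measured 3.52 and 3.60 in controls and 2.88 in C59 replicate 1, and Snai1 measured 2.64 and 2.48 in controls and 2.79 in C59 replicate 1. Each was missing from 1 C59 replicate list and from the C59 consensus, but was listed in the control consensus. A consensus list holds only summits that fall within peaks of each replicate, so its absence there is not separate evidence. Over the 7 comparable genes the median log2 difference between C59 and controls was -0.01, against 0.00 over all 11287 promoters (quartiles -0.11 and 0.10).

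**Figure D3:**
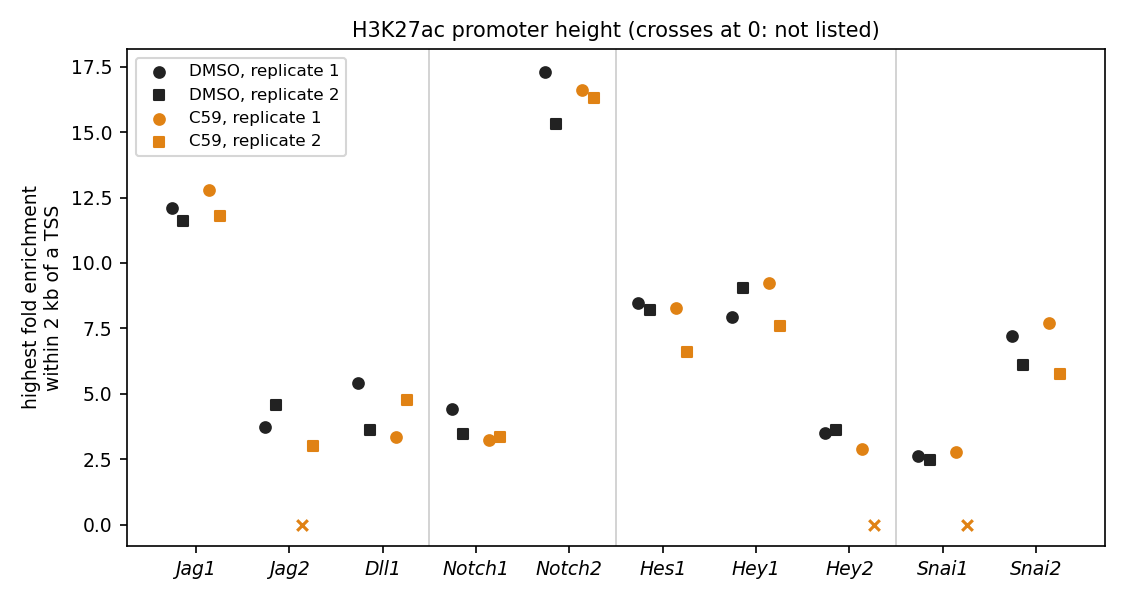
Height of the highest H3K27ac summit within 2 kb of a TSS of each gene, as fold enrichment, in each replicate library. Crosses at 0 mark promoters with no listed summit in a library (1 C59 library each for Jag2, Hey2 and Snai1). Black and orange symbols overlap for Jag1, Dll1, Notch2, Hes1, Hey1 and Snai2, and the orange symbols lie lower for Notch1.

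At the sites that lost their β-catenin call, H3K27ac was measured as the highest summit within 1 kb. It was listed in all 4 libraries at 21 of the 34 summits (61.8%, against 30.1% of all 16193 control summits), in none at 7, and in 1 to 3 libraries at 6. Of the 21, both C59 values lay below both control values at 0, against 16.1% of all control summits compared in the same way, and above them at 6, against 25.9%. At the upstream Hes1 site, H3K27ac measured 8.72 and 9.96 in controls and 12.2 and 11.4 after C59. The Notch2 site 71.6 kb upstream measured 9.20 and 9.45 in controls and 11.6 and 11.7 after C59. Both sites kept an H3K27ac peak that was higher in both C59 libraries, while β-catenin was no longer in the consensus.

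The Hey1 site about 50.3 kb upstream, which counts for 2 summits, measured 3.75 and 3.22 against 4.74 and 5.02. At Snai1 the site 5.4 kb downstream measured 3.78 and 3.90 against 4.65 and 4.21, and the site 57.9 kb downstream 3.95 and 3.62 against 4.55 and 4.25. The exact permutation p was 0.33 at each of these 6 summits. The median log2 difference over the 21 was 0.03, the same as over all 4869 control summits compared.

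**Figure D4:**
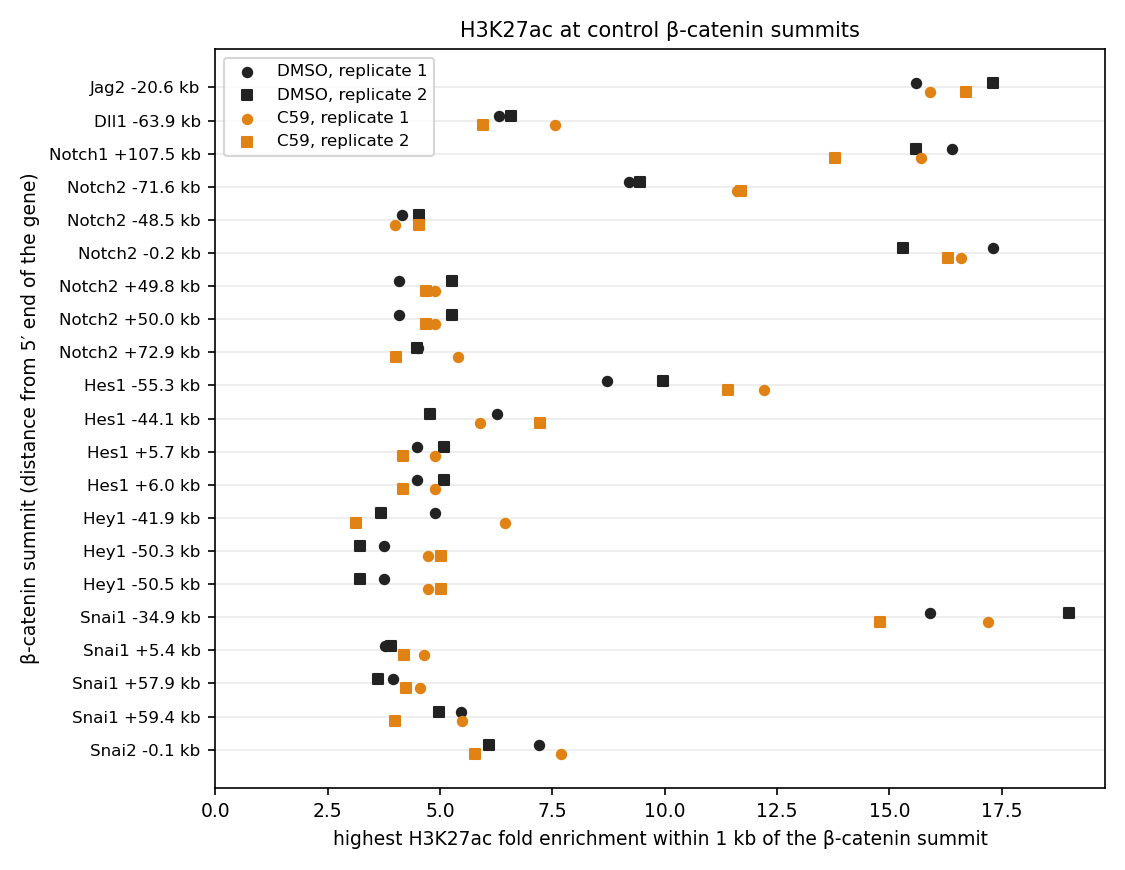
Highest H3K27ac fold enrichment within 1 kb of the 21 control β-catenin summits where it was listed in all 4 replicate libraries, labelled by gene and distance from its 5′ end. Orange symbols (C59) lie right of both black symbols (controls) at 6 summits, among them the sites 55.3 kb upstream of Hes1 and 71.6 kb upstream of Notch2, and left of both at none.

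Joined over the 4 libraries, the H3K27ac peaks of the 10 loci formed 102 regions, of which 50 were listed in all 4 (49.0%, against 51.3% of all regions). Another 4 regions were listed in both controls and in no C59 library (3.92%, against 3.03% of all 34047 regions), and 4 in both C59 libraries and in no control (3.92%, against 2.15%). Besides the pair at the Notch1 TSSs and 4 regions in or near Notch2, each direction held 1 region that carried a β-catenin summit with a TCF/LEF core. The region downstream of Hes1 (chr16:30145387-30145735), which holds the summit 81.1 kb from the Hes1 start, measured 4.07 and 3.60 in the controls and was not listed after C59. The region downstream of Snai1 (chr2:167583377-167583607), which holds the strongest β-catenin summit of all 10 loci, was not listed in the controls and measured 4.05 and 3.39 after C59. Separate H3K27ac calls on either side of that Snai1 summit and within 1 kb, at folds of 2.47 and 2.98, were present in control replicate 2. The Hes1 and Snai1 regions both lost their β-catenin call after C59. Their H3K27ac calls moved in opposite directions, but all of these folds were low and the difference was not tested.

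At the nearer downstream Hes1 site, 39.2 kb from the start and also with a TCF/LEF core, H3K27ac within 1 kb measured 4.21 and 6.15 in controls, 3.36 in C59 replicate 1, and was not listed in C59 replicate 2. At the Dll1 summit with the core, H3K27ac was not listed in any library.

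Among 29 other genes of the NOTCH pathway, 24 had at least 1 β-catenin summit in the control consensus, beside 58.8% of all protein-coding loci, with 61 in all and a median of 2 per gene, against 9 of 10 and a median of 2.50 for the 10 genes above. C59 lists held 0 summits at any of the 29. Both C59 counts were below both control counts at 26 of 29, beside the 65.0% of all loci. Here too, a locus with 0 summits in a control replicate could not be called. The genes with the most summits in the control consensus were Maml3, Rfng and Notch3. Maml3, which encodes a co-activator of the NOTCH-RBPJ complex, had 11 in the consensus and 11 and 16 in the control replicates. Rfng, which encodes a glycosyltransferase that modifies NOTCH receptors, had 9 in the consensus and 8 and 10 in the control replicates. The receptor gene Notch3 had 4 in each control list. Promoter H3K27ac could be compared at 22 of the 29, with both C59 values lower at 4 (beside 19.5% of all promoters), higher at 3 (beside 21.1%) and overlapping at 15. Both C59 counts of H3K27ac summits were lower at 7 of the 29 loci (beside 12.1% of all loci) and higher at 3 (beside 4.84%). Among 5 further genes of the Snail and epithelial-mesenchymal group, 3 had summits in the control β-catenin consensus: the repressor gene Zeb2, with 6 and 7 in the replicates, and the cadherin genes Cdh2, with 5 and 9, and Cdh1, with 4 and 6. All 3 had 0 in every C59 list.

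The tissue label was checked on promoter H3K27ac. The 4 markers of forelimb bud mesenchyme (Prrx1, Tbx5, Hand2 and Meis1) were listed in all 4 libraries, with folds from 3.20 to 5.88. Fgf8, Trp63 and Krt5, markers of the ectoderm and its apical ridge, were listed in none, and neither were Alb, Neurod1, Myh6 and Gata1, which mark tissues outside the bud. Of the hindlimb markers, Pitx1 was listed in none, whereas Tbx4 was listed in all 4, with 3.25 and 4.63 in controls and 3.36 and 3.52 after C59. The fragment bases of the H3K27ac libraries were 5.03 and 5.39 Gb in controls and 5.93 and 5.56 Gb after C59. The part of these differences in depth in the H3K27ac comparisons was not tested.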

How the data were processed

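Reads were trimmed by the authors (cutadapt), aligned to mm10 (Bowtie2 2.4.5) and filtered on mapping quality. Peaks were called in each replicate with MACS2 2.2.7.1 at a genome size of 1870000000 and without input. A consensus list was made from both replicates after removal of duplicates (Picard 2.27.4) and sampling to equal depth, and it holds the summits that fall within peaks of each replicate. The deposited columns used are the fold enrichment at a summit, which is a ratio to the coverage expected in that library, together with −log10 p-values and −log10 q-values. The 8 replicate and 4 consensus lists were used, and the 4 input samples were not analysed here. No reads were used, so a locus is described by its calls.

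Members and lists were chosen with earlier results of these data known. A summit lay within 100 kb of a GENCODE M21 gene body, and was at a promoter within 1 kb of a TSS. Counts and heights were compared by two-sided exact permutation tests of 2 against 2 replicates (smallest p, 0.33). Fragments over a summit and those expected were solved from its fold and p, and the lowest expected number times the genome size gave the fragment bases. Peak regions of the H3K27ac replicate lists were joined where they overlapped. Named in each list of further genes were the 3 with the most summits in the control β-catenin consensus, besides any gene with a summit left after C59. The functions were tested on simulated data. Calculations were run with scipy 1.17.1, pandas 2.3.3, numpy 2.4.6 and pysam 0.24.0 under Python 3.11.15. Alternatives changed the window, the assignment to genes, the threshold, the overlap, the scaling and the replicates used. The limit at a common lowest p-value was added after the data were seen.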

Additional observations from a re-analysis of the deposited data

How the results depend on the processing

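The loss of β-catenin calls kept its direction under all alternatives run. The 34 control summits became 22 within 50 kb and 59 within 200 kb. The C59 count of 0 became 1 without replicate 2, with or without the limit at a common lowest p-value, and was 0 without replicate 1. The 101 control H3K27ac summits became 65 within 50 kb, 158 within 200 kb, 54 where the nearest coding TSS was of the listed gene, and 65 distinct regions. The 90 C59 summits became 57, 136 and 48 under the first 3 of these. The share of β-catenin summits inside H3K27ac peaks rose from 52.9% to 70.6% when a distance of 500 bp was allowed. The share over all control summits is not given at this distance, so 70.6% cannot be set against the 22.1% above. Leaving out 1 library at a time moved the median log2 promoter difference between -0.16 and 0.09, with 0.09 without DMSO replicate 1 and 0.03 without C59 replicate 2 against -0.01 with all, so its sign rests on single libraries, and the cause was not tested. Over the same leave-outs, the log2 difference ranged from -0.43 to 0.17 for Dll1 (0.08 without C59 replicate 1), from -0.07 to 0.11 for Notch2, from -0.16 to 0.12 for Hey1 (0.08 without DMSO replicate 2) and from -0.20 to 0.21 for Snai2 (-0.10 without DMSO replicate 2), so that the sign of each of these 4 changed. For Notch1 it ranged from -0.42 to -0.07. As a replicate block, the difference within replicate number, summed over the 10 loci, averaged -43.5 β-catenin summits and 1.00 H3K27ac summit, and its exact sign-flip test cannot go below p = 0.50. The block changed no call. Deviations of same-numbered H3K27ac libraries correlated at r = 0.01, so the numbers do not pair them. With peak lists alone, depth and the differing lowest p-values limit what an unlisted summit shows.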
